A study of Arabidopsis thaliana with 24 samples.

Results

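The comparison described here asked what loss of HD2C changed in heat-stressed Arabidopsis thaliana plants that already carried the brm-1 mutation. It set 3 arrays of brm-1 hd2c-3 double mutants after heat against 3 arrays of brm-1 single mutants after heat, 6 of the 24 arrays of the series. Genes were taken from the 16746 of 38408 probe sets that carry 1 named gene, and keeping 1 probe set per gene left 16554 genes, all of which were tested.

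Whole-transcript arrays were hybridised with labelled total RNA of 4 genotypes, all in the Col-0 background, in 8 groups of 3. The brm-1 hd2c-3, brm-1, hd2c-3 and wild-type (WT) plants were 3 weeks old and had grown on soil under 16 h of light and 8 h of dark at 70% humidity. The heat groups were kept at 38 °C for 1 h, and the control groups were collected before heat. Both groups of the main comparison therefore share the brm-1 mutation, the heat, the age and the background, and differ by hd2c-3. The sample titles give the double mutant as brm-1 hd2c-3, while the series' design text writes hd3c-3 in that 1 place, and the titles were followed. The labels name plants and no organ. Each mutation is represented by 1 allele. According to the series' design text, the 3 biological replicates of each group were picked because selected marker genes, which it does not name, had similar levels in them, so the spread between replicates may be smaller than among plants not picked this way.

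HD2C belongs to the HD2 type of histone deacetylases, a plant-specific family whose members remove acetyl groups from histones and are found largely in the nucleolus and nucleus. BRM is the ATPase of SWI/SNF chromatin remodelling complexes, which move or evict nucleosomes at genes. Histone acetylation is generally associated with transcribed genes. Heat shock in plants induces chaperones, among them the small heat shock proteins that hold unfolding proteins in solution, within minutes to hours.

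Values are log2 intensities, so a difference of 1 is a doubling. Each ± after a difference is limma's moderated standard error (SE) with 3 arrays in each group, and a gene was called, and is said to have risen or fallen, where its p, adjusted by Benjamini and Hochberg's method across the 16554 genes, was under 0.05. HD2C and BRM have no probe set that names them, so neither was analysed here, and no check of the genotypes against these 2 transcripts was made. Array medians lay between 3.42 and 3.65 over all 24 arrays. The median of 3 measured light-harvesting genes, markers of green tissue, was 9.28 to 9.55 in brm-1 hd2c-3 and 9.35 to 9.61 in brm-1 after heat. Replicate 1 of brm-1 hd2c-3 and replicate 1 of brm-1 stood apart from the other heat arrays of their genotypes: the first had the highest score on the first principal component of the 6 arrays (39.4% of the variance), and the second the lowest score on the second component (29.1%), at -29.5. The median SD of a gene was 0.212 in brm-1 hd2c-3 after heat, the widest of the 8 groups, and 0.171 in brm-1 after heat. It was 0.194 in hd2c-3 and 0.165 in WT after heat, and 0.134 to 0.156 in the 4 control groups. A spread pooled over all groups is therefore smaller than the spread within these 6 arrays.

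After heat, 794 genes differed between brm-1 hd2c-3 and brm-1, 4.8% of those tested, with 460 higher (2.78%) and 334 lower (2.02%) in the double mutant. The large differences were mostly rises: of 149 genes called with at least a 2-fold difference, 128 rose and 21 fell. Among genes with a symbol, the largest rises were ABR1, the wax ester synthase WSD1, the cold-regulated COR47 and KIN1 and the small heat shock protein gene ATHSP22.0. The largest falls were QQS, which affects starch content, bZIP42 and AUR1, a kinase of mitosis, and 11 of 16 measured genes on a list of mitosis and DNA replication, chosen after its values were seen, fell. The median difference over all genes was 0.01.

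The number of calls depended on which arrays set the spread. When the 6 arrays were fitted alone, limma called 165 genes, of which 134 were higher. Without both heat arrays numbered 1 it called 372 genes, and with replicate 1 left out of brm-1 hd2c-3 or of brm-1 alone it called 550 and 547. Leaving out replicate 3 of brm-1 gave 384 calls and leaving out replicate 3 of brm-1 hd2c-3 gave 400. Of the 794 genes, 271 were called in each of the 6 fits that leave out 1 array of the comparison (188 higher and 83 lower), and 146 of those were also called from the 6 arrays alone (124 higher and 22 lower).

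**Figure D1:**
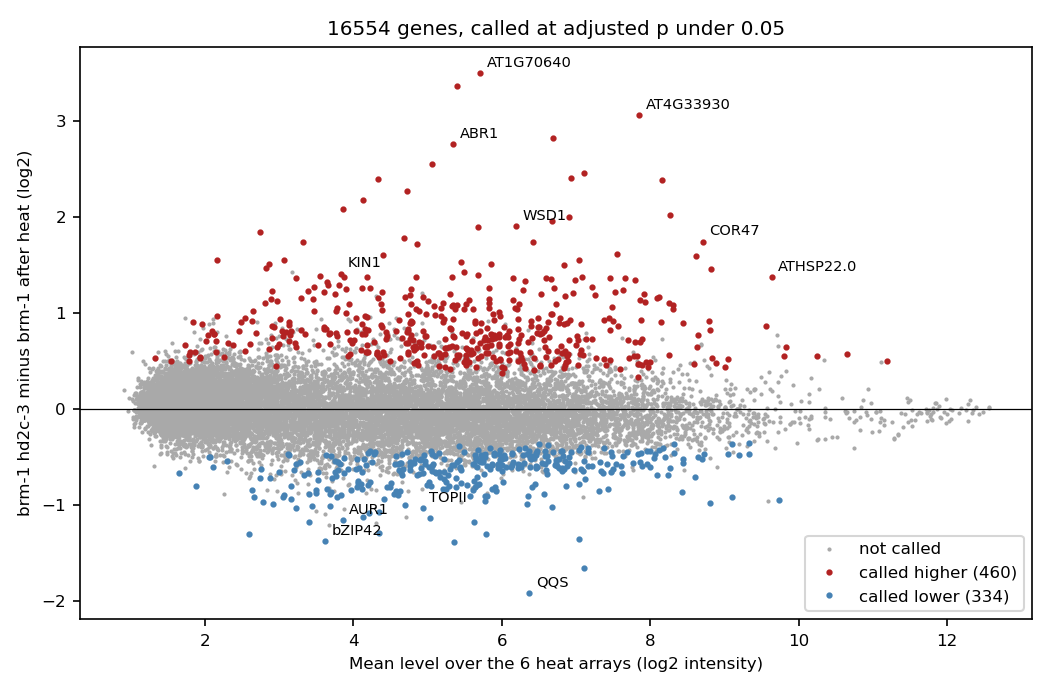
Difference between brm-1 hd2c-3 and brm-1 after heat (y axis, log2) against the mean level over the 6 heat arrays (x axis, log2 intensity) for 16554 genes, with called rises in red and called falls in blue. The 460 called rises reach above 3, while the largest called fall, QQS, is at -1.92.

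Among genes with a symbol, ABR1, an AP2/ERF transcription factor that represses abscisic acid responses, rose most. Its level was 7.11, 6.14 and 6.93 in brm-1 hd2c-3, against 3.86, 3.90 and 4.15 in brm-1. The lowest double mutant array was well above the highest brm-1 array, a separation that 18.6% of all genes showed in one direction or the other (8.87% higher and 9.73% lower in the double mutant). The difference was 2.76 ± 0.35, or 6.76-fold (limma adjusted p = 5.487e-05). ABR1 is also the only gene measured on the list of 17 abscisic acid response genes.

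Several cold-regulated genes rose. Of 7 measured genes on their list, 3 rose and none fell, where 2.78% of all genes rose and 2.02% fell, and the list median was 0.57. COR47, a dehydrin that protects proteins and membranes during water loss, had 9.53, 9.35 and 9.85 in brm-1 hd2c-3, against 7.88, 7.97 and 7.66 in brm-1. That is a 3.34-fold difference, 1.74 ± 0.23 (limma adjusted p = 6.62e-05), with no overlap. KIN1, a small hydrophilic protein induced by cold and abscisic acid, had 4.54, 4.65 and 4.44 in the double mutant and 3.30, 3.15 and 2.96 in brm-1. Again all 3 double mutant arrays were above all 3 brm-1 arrays, by 1.41 ± 0.23 (limma adjusted p = 6.46e-04). Its neighbour and close relative KIN2, which lies far higher in level, differed by 0.57 ± 0.12, with 11.05, 10.79 and 10.96 in the double mutant and 10.16, 10.43 and 10.49 in brm-1 (limma adjusted p = 0.00464). Because the 2 sequences are alike, cross-hybridisation between their probes was not tested. KIN2 was not called from the 6 arrays alone (adjusted p = 0.162).

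The other members of the cold list were not called. LTI30, another dehydrin, differed by 0.94 ± 0.30 with no overlap (limma adjusted p = 0.078), at levels of only 1.60 to 2.54 in brm-1 hd2c-3 and 1.09 to 1.38 in brm-1. COR15A and COR15B, which encode chloroplast proteins that protect membranes in the cold, differed by -0.03 and -0.08, and AT4G33550 by 0.18. SRC2, named after a cold-regulated gene of soybean, is outside the list and also rose. Its level was 8.22, 8.29 and 8.53 in brm-1 hd2c-3, against 6.83, 7.26 and 6.85 in brm-1, a difference of 1.37 ± 0.28 (limma adjusted p = 0.00509) without overlap.

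WSD1, TET8 and SAT32 were among the other large rises. WSD1, which makes the wax esters of the plant surface, had 7.07, 6.91 and 7.44 in brm-1 hd2c-3, against 5.03, 5.49 and 5.20 in brm-1. This is a 3.73-fold rise, 1.90 ± 0.27 (limma adjusted p = 1.449e-04). TET8, a tetraspanin of the plasma membrane and of secreted vesicles, had 8.16, 7.97 and 8.30 in brm-1 hd2c-3, against 6.74, 7.05 and 6.55 in brm-1, 1.36 ± 0.16. SAT32, named for salt tolerance, had 7.95, 7.60 and 8.01 in the double mutant, against 6.77, 6.54 and 6.46 in brm-1, 1.26 ± 0.14. Their adjusted p values were 2.479e-05 and 7.409e-06 (limma). The rule that named these symbol genes took only genes whose groups do not overlap, so the separation of the arrays is part of the choice for each of the 15 largest rises and the 15 largest falls.

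The remaining symbol genes among the 15 largest rises lay between 1.02 and 1.25. They were NTMC2T6.2 (1.25 ± 0.26), a protein with a transmembrane segment and C2 domains, the UDP-glycosyltransferase UGT87A2 (1.16 ± 0.14), the glutamate receptor-like channel GLR3.5 (1.12 ± 0.18), PRA1.B4 (1.09 ± 0.21) of a family that binds prenylated Rab proteins, UGT74D1 (1.07 ± 0.25), UGT76E11 (1.03 ± 0.21) and NDB2 (1.02 ± 0.17), an alternative NAD(P)H dehydrogenase of the mitochondrion. All were called by limma with adjusted p between 2.546e-05 and 0.0133. Of the 15 largest rises, 14 kept the call whichever of the 6 arrays was left out, all 15 kept it without both heat arrays numbered 1, and 11 were called from the 6 arrays alone.

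**Figure D2:**
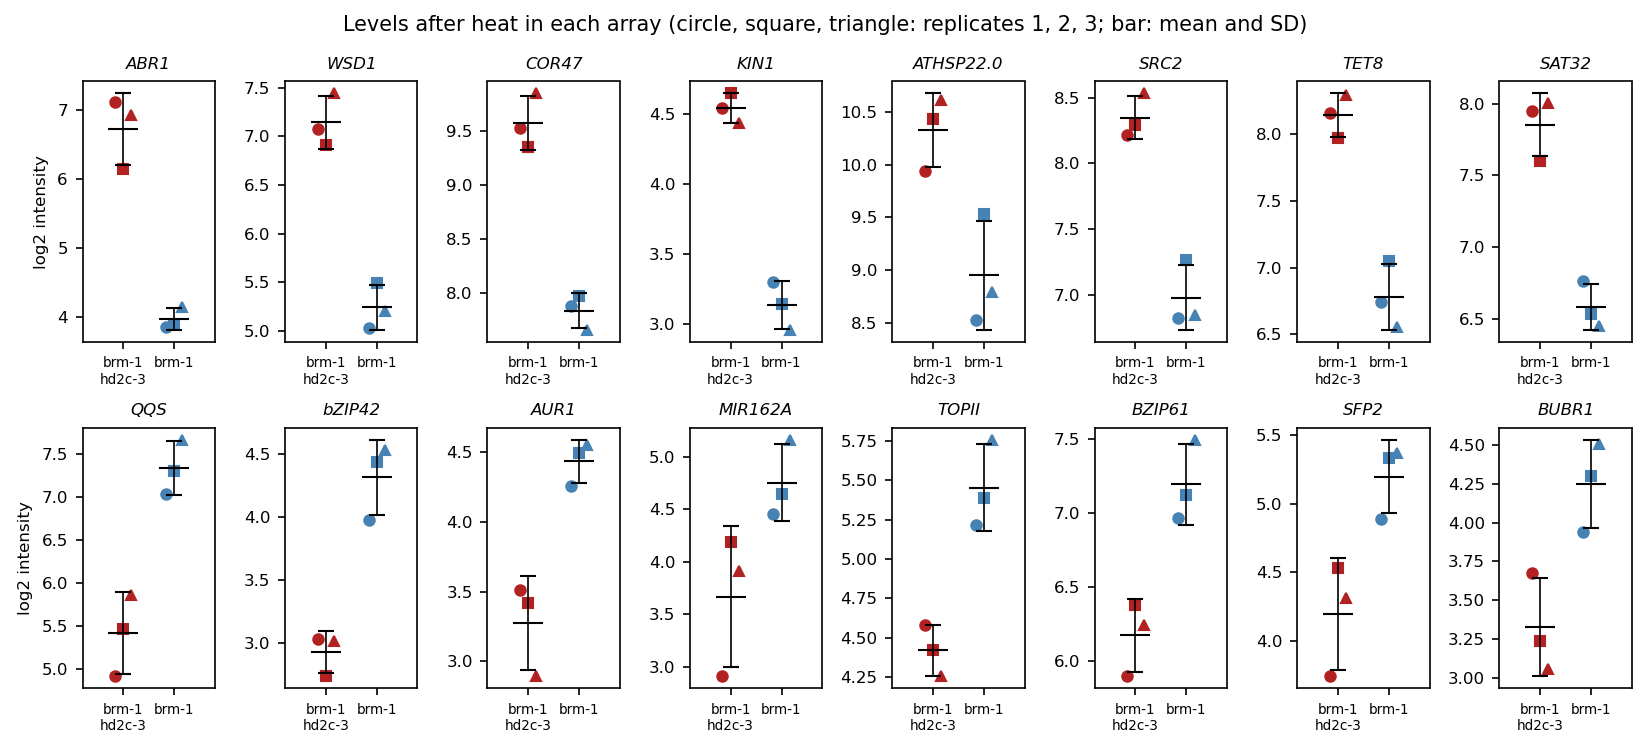
Level in each heat array (log2 intensity, each panel with its own axis) of the 8 symbol genes with the largest rises (upper row) and the 8 with the largest falls (lower row), with brm-1 hd2c-3 in red and brm-1 in blue, and bars for mean and SD of 3 arrays. The genes were chosen among those whose 2 groups do not overlap, so the separation in all 16 panels follows from the choice. Replicate 1 of brm-1 hd2c-3 is the lowest of its group for MIR162A at 2.91.

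Most called genes, 673 of 794, have no symbol in the tables used here, and the largest rises were among them. The ones given next were chosen after their values were seen. AT1G70640 had 7.37, 6.79 and 8.21 in brm-1 hd2c-3, against 3.31, 4.48 and 4.10 in brm-1, an 11.3-fold difference of 3.49 ± 0.39 (limma adjusted p = 1.559e-05). AT4G33930 had 9.29, 9.13 and 9.74 in brm-1 hd2c-3, against 6.94, 6.63 and 5.41 in brm-1, 3.05 ± 0.33 (limma adjusted p = 7.409e-06). Both were clear of overlap by more than 2. AT4G36010 rose by 2.82 ± 0.34 and AT4G35985 by 2.55 ± 0.33. AT1G48720 had a large but less certain difference, 3.36 ± 0.76 (limma adjusted p = 0.0107), because its brm-1 arrays were scattered at 4.79, 2.07 and 4.31 beside 7.01, 6.80 and 7.42 in the double mutant.

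Most chaperone genes were not called, as held for genes at large, of which 4.8% were called. Of 14 measured small heat shock protein genes 2 rose and none fell, where 2.78% of all genes rose, and their list median was 0.20. AT1G52560 had 9.42, 9.00 and 9.41 in brm-1 hd2c-3, against 6.65, 7.79 and 7.33 in brm-1, a difference of 2.02 ± 0.35 (limma adjusted p = 0.00132). ATHSP22.0, a small heat shock protein of the endoplasmic reticulum, had 9.94, 10.43 and 10.61 in the double mutant, against 8.54, 9.53 and 8.79 in brm-1, 1.37 ± 0.27 (limma adjusted p = 0.00365). In both genes the groups were apart, but ATHSP22.0 was not called from the 6 arrays alone (adjusted p = 0.0571). The other 12 genes differed by -0.44 to 0.66, and AT1G07400 and AT2G29500, which were bright in all 6 arrays, stood at -0.03 ± 0.33 and 0.20 ± 0.12.

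Co-chaperone genes were likewise mostly uncalled, which does not set them apart, since only 4.8% of all genes were called. HSA32, which is needed to retain acquired thermotolerance, was the only one of 10 measured co-chaperone and heat memory genes to be called, with 7.63, 8.07 and 8.07 in brm-1 hd2c-3 and 6.80, 7.21 and 6.93 in brm-1, 0.94 ± 0.25 (limma adjusted p = 0.0315). It kept the call in 2 of the 6 fits with 1 array left out. The HSP70-HSP90 organising proteins Hop1, Hop2 and Hop3 differed by 0.08, -0.31 and 0.07, and Fes1A, an exchange factor of HSP70, by 0.41 ± 0.36. Both measured HSP70 genes, Hsp70-2 and AT3G09440, were uncalled at 0.45 ± 0.25 and -0.08 ± 0.18. None of 7 genes of the unfolded protein response was called (list median -0.08). None of the 22 listed heat shock factors had a probe set naming it alone, so none was analysed. In hd2c-3 minus WT after heat, the chaperone lists had larger medians than here. Small heat shock protein genes were at 0.64, against 0.20 here, and co-chaperone and heat memory genes at 0.73, against 0.07. The 2 HSP70 genes were at 0.93, against 0.18, and the unfolded protein response genes at 0.37, against -0.08. The differences between these medians were not tested.

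Among enzyme families, the UDP-glycosyltransferases, which attach sugars to hormones and secondary metabolites, had 6 of 55 measured members higher and none lower, against 2.78% and 2.02% of all genes. Besides the 3 given above these were UGT84A3 (0.76 ± 0.15), UGT71B5 (0.74 ± 0.19) and UGT88A1 (0.57 ± 0.14). The family median was 0.07, near that of all genes. In UGT87A2 the arrays read 8.79, 8.52 and 8.77 in brm-1 hd2c-3, against 7.47, 7.57 and 7.56 in brm-1, without overlap. Of 35 expansin and xyloglucan endotransglucosylase genes, which loosen or remodel cell walls, XTH19 alone was called, at 0.90 ± 0.23. Of 30 cytochrome P450 genes CYP71B34 alone was called, at -0.53 ± 0.14. No glutathione transferase (15 measured) and no WRKY transcription factor gene (7 measured) was called.

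QQS, an orphan gene of Arabidopsis that affects starch content, had the largest fall. Its level was 4.91, 5.47 and 5.86 in brm-1 hd2c-3, against 7.04, 7.30 and 7.66 in brm-1. The highest double mutant array lay more than 1 below the lowest brm-1 array. The difference was -1.92 ± 0.23, a 3.78-fold lower level (limma adjusted p = 2.466e-05). QQS was also lower in the double mutant without heat, at -1.13 ± 0.23 (limma adjusted p = 0.0856, not called), with 5.71, 5.62 and 5.44 in brm-1 hd2c-3 and 6.69, 6.80 and 6.68 in brm-1. WT after heat had 4.86, 4.28 and 4.67, so brm-1 hd2c-3 lay between WT and brm-1.

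Of 25 measured bZIP transcription factor genes 3 fell and none rose, where 2.02% of all genes fell and 2.78% rose. bZIP42 had 3.04, 2.74 and 3.02 in brm-1 hd2c-3, against 3.97, 4.44 and 4.53 in brm-1, -1.38 ± 0.27 (limma adjusted p = 0.00343). BZIP61 had 5.90, 6.38 and 6.24 in brm-1 hd2c-3, against 6.96, 7.12 and 7.49 in brm-1, -1.02 ± 0.16 (limma adjusted p = 5.836e-04). In neither did the groups overlap. BZIP34 fell by less, -0.61 ± 0.15. The list median was -0.08.

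The 15 largest falls of symbol genes also included MIR162A, SFP2, ZCF37, PYK10 and NAI2. MIR162A, the precursor of a microRNA that targets the microRNA-processing enzyme DCL1, had 2.91, 4.19 and 3.91 in brm-1 hd2c-3, against 4.45, 4.64 and 5.16 in brm-1, -1.08 ± 0.23. SFP2, a sugar transporter-like gene, fell by 1.00 ± 0.22 and ZCF37 by 0.90 ± 0.20. PYK10, the main beta-glucosidase of the endoplasmic reticulum bodies, and NAI2, which is needed to form those bodies, fell by 0.92 ± 0.26 and 0.84 ± 0.23. The calls of PYK10 and NAI2 were fragile: PYK10 kept its call in none of the 6 fits without 1 array and NAI2 in 2. Of the 15 largest falls, 9 kept the call in all 6 such fits, 13 without both heat arrays numbered 1, and 7 were called from the 6 arrays alone.

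Several genes of mitosis and DNA replication fell. From a list of 62 such genes, put together after the differences had been seen, 16 were measured, of which 11 fell and none rose, with a median of -0.68. Of all genes, 2.02% fell and 2.78% rose. Since the list was chosen with its values in view, these counts only describe it. The spindle and chromosome members were AUR1 and AUR2, Aurora kinases that phosphorylate histone H3 (-1.16 ± 0.21 and -0.67 ± 0.16), BUBR1 of the spindle checkpoint (-0.92 ± 0.21), Haspin, another histone H3 kinase (-0.69 ± 0.14), the cytokinesis motor KINESIN-12B (-0.89 ± 0.17) and 3xHMG-box1, which binds mitotic chromosomes (-0.85 ± 0.19).

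AUR1 had 3.51, 3.42 and 2.89 in brm-1 hd2c-3, against 4.26, 4.50 and 4.55 in brm-1 (limma adjusted p = 0.00199). TOPII, the topoisomerase that untangles sister chromatids, had 4.58, 4.42 and 4.25 in brm-1 hd2c-3, against 5.22, 5.39 and 5.76 in brm-1, -1.04 ± 0.15 (limma adjusted p = 1.464e-04). No array of one genotype reached into the range of the other in either gene. The replication members that fell were ICU2, the catalytic subunit of DNA polymerase alpha (-0.86 ± 0.16), PRL, a subunit of the MCM helicase (-0.59 ± 0.16), the histone chaperone ASF1B (-0.63 ± 0.15) and FBL17, an F-box protein that removes inhibitors of cyclin-dependent kinases (-0.82 ± 0.14).

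The 5 uncalled members were AUR3 (-0.57 ± 0.17, limma adjusted p = 0.0543), BUB3.1 (-0.50 ± 0.16), the centromeric histone gene HTR12 (-0.41 ± 0.19), BUB3.2 (-0.25 ± 0.15) and SGA2 (0.06 ± 0.16). The list's median level was 3.86, 3.68 and 3.56 in the 3 arrays of brm-1 hd2c-3, against 4.30, 4.51 and 4.53 in brm-1. Of the 11 falls, 6 were kept in all 6 fits with 1 array left out and 3 were called from the 6 arrays alone, AUR1 and TOPII among them. These RNAs come from whole samples, in which fewer dividing cells and less RNA per dividing cell cannot be told apart. The 3 light-harvesting genes, measured as markers of green cells, differed by -0.31 to -0.10 and none was called. Pollen markers had median levels of 1.13 to 1.72 in brm-1 hd2c-3 and 1.41 to 2.21 in brm-1, and no listed floral, root or seed marker had a probe set naming it alone.

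**Figure D3:**
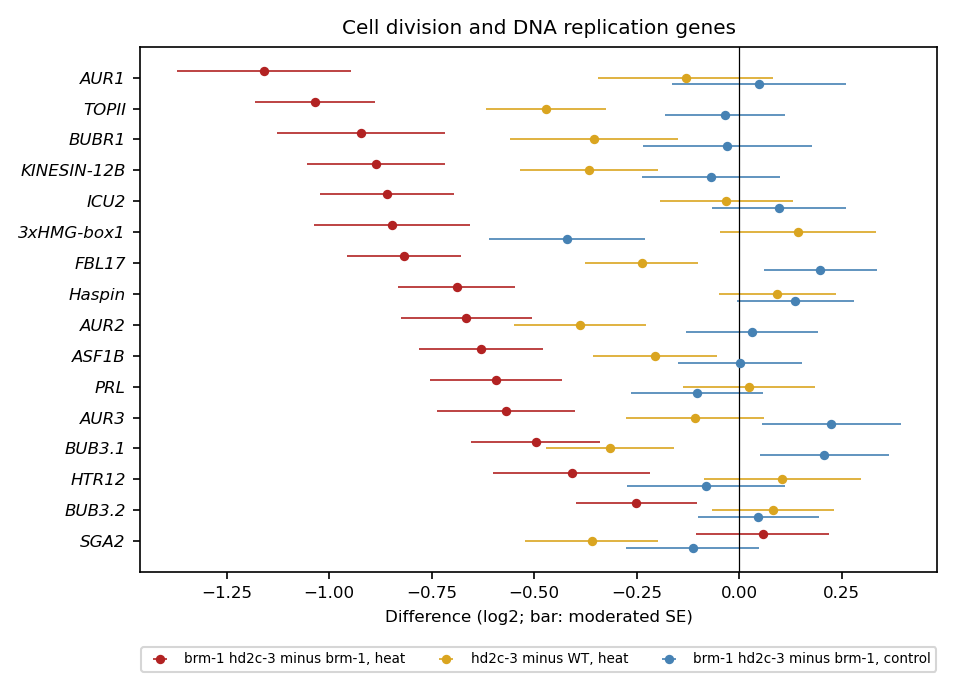
Differences (x axis, log2, bars for the moderated SE) of the 16 measured mitosis and replication genes for brm-1 hd2c-3 minus brm-1 after heat (red), hd2c-3 minus WT after heat (orange) and brm-1 hd2c-3 minus brm-1 in control (blue). The red points run from -1.16 for AUR1 to 0.06 for SGA2, and the list medians of the other 2 comparisons are -0.17 and 0.02.

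No measured gene for the machinery altered in these mutants was called. Of all genes 4.8% were called, so lists as short as those given here can hold no called gene without differing from the rest. None of 12 measured SWI/SNF subunit genes was called (list median -0.10, with 9 below 0 and 3 above). Of the histone deacetylase genes only HDA7 and HDA15 were measured, at 0.24 and -0.26, both uncalled. None of 7 histone genes was called, with a median of -0.10. In ribosome biogenesis, the process housed in the nucleolus, all 6 measured genes were above 0 with a median of 0.28, and AT3G13940 was called (0.58 ± 0.14). None of 63 plastid-encoded genes was called, although 50 of them lay below 0 (median -0.05). Of 5 genes measured on the defence list, 4 lay below 0, none of them called, and the list median was -0.61. The other, AT2G26690, rose by 0.64 ± 0.14, and its place on a defence list was not checked.

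Whether the differences were tied to heat was examined by setting the same pair of genotypes side by side in control conditions and by testing the difference of the 2 effects. In control, brm-1 hd2c-3 and brm-1 differed in 7 genes, 0.0423% of those tested (3 higher, 0.0181%, and 4 lower, 0.0242%, with 939 genes at an unadjusted p under 0.05). The effect of hd2c-3 in the brm-1 background differed between heat and control in 390 genes (2.36%), 270 more positive (1.63%) and 120 more negative (0.725%) after heat than in control. Of the 390, 313 were also called after heat. Of those 313, 221 were higher and 92 lower in the double mutant after heat. That share is not independent, since the difference contains the heat arrays themselves.

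COR47 shows the largest contrast in the cold list. In control it had 7.19, 7.20 and 6.96 in brm-1 hd2c-3, against 7.31, 8.08 and 8.06 in brm-1, a difference of -0.70 ± 0.23 that was not called (limma adjusted p = 0.524), so the effect of hd2c-3 was larger after heat by 2.44 ± 0.32 (limma adjusted p = 2.208e-04). For TET8 the effect was larger after heat by 1.92 ± 0.23, for SRC2 by 2.27 ± 0.40, for ABR1 by 2.59 ± 0.50 and for bZIP42 it was lower after heat by 2.36 ± 0.38, all called. ABR1 had 3.66, 4.84 and 4.83 in brm-1 hd2c-3 control and 3.83, 4.65 and 4.34 in brm-1 control, overlapping. Of the 15 largest rises 11 were called for this difference, and of the 15 largest falls 7. These genes were picked by their heat values, which the difference contains, so the counts only describe them. WSD1, at 1.30 ± 0.38 (limma adjusted p = 0.0744), and QQS, at -0.79 ± 0.32 (limma adjusted p = 0.256), were not called for it.

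**Figure D4:**
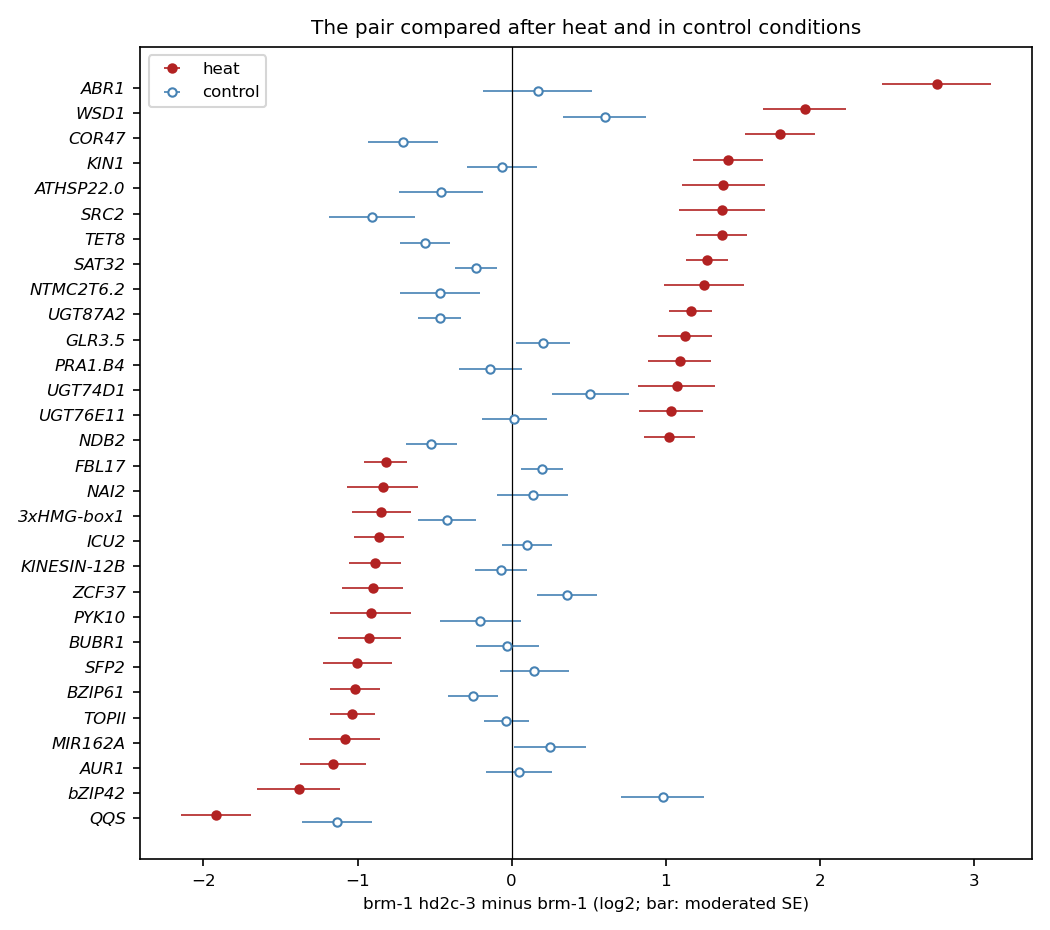
Difference between brm-1 hd2c-3 and brm-1 (x axis, log2, bars for the moderated SE) after heat (red, filled) and in control (blue, open) for the 15 largest rises and 15 largest falls among symbol genes. None of these genes was called in control, where bZIP42 at 0.98 and QQS at -1.13 lie farthest from 0.

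The called genes were also set against the heat response of WT, whose means share no array with the main comparison. Both sets of calls use a spread pooled over all 24 arrays, so they are not independent. Of the 460 higher genes, 105 (22.8%) rose with heat in WT and 38 (8.26%) fell with it, where 5.81% of all genes rose and 7.48% fell. Of the 334 lower genes, 111 (33.2%) fell with heat in WT and 24 (7.19%) rose. Called genes were also expressed at higher levels, with a median brm-1 level after heat of 5.13 for the higher and 6.03 for the lower genes, against 3.26 for all genes. The part of the level in these shares was not tested. Of the 11 falls in the mitosis and replication list, 10 fell with heat in WT, AUR1 by 0.98 among them.

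Named genes of both kinds were among them. ATHSP22.0 rose in WT with heat by 6.82 and AT1G52560 by 4.59, and both were higher again in brm-1 hd2c-3 than in brm-1. KIN1 rose in WT by 1.18, whereas KIN2 fell in WT by 0.58 and SAT32 by 0.55. COR47 and NDB2 showed no called heat response in WT (-0.13 and -0.09).

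The effect of hd2c-3 without the brm-1 mutation, hd2c-3 minus WT after heat, rests on 6 other arrays. It called 99 genes (0.598%), 82 higher (0.495%) and 17 lower (0.103%). With the main comparison it shared 27 genes higher in both, which is 5.87% of the 460 and 32.9% of the 82, and 6 genes lower in both, 1.8% of the 334 and 35.3% of the 17. There were 3 genes called in opposite directions. Called or not, the difference in the WT background was above 0 for 392 of the 460 higher genes (85.2%) and for 72 of the 334 lower genes (21.6%), against 55.3% of all genes. In control the share above 0 was 34.1% of the higher genes and 62.0% of the lower genes, against 56.6% of all. Those control values were uncalled for nearly every gene, and the values in the WT background were uncalled for most.

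The calls of the hd2c-3 comparison were less stable than those of the main one. From its own 6 arrays limma called 3 genes, and leaving out replicate 1 of WT left 3 calls, replicate 2 of hd2c-3 left 4, replicate 3 of hd2c-3 left 39 and replicate 3 of WT left 52, whereas leaving out replicate 1 of hd2c-3 gave 357. The counts of shared genes carry that uncertainty.

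AT1G52560, the small heat shock protein gene, was higher with hd2c-3 in both backgrounds. It had 8.23, 9.72 and 9.98 in hd2c-3 after heat, against 6.34, 7.49 and 7.36 in WT, 2.25 ± 0.35 (limma adjusted p = 0.00469), beside 2.02 ± 0.35 in the brm-1 background. AT2G42150 had 3.58, 4.76 and 5.07 in hd2c-3 after heat, against 2.58, 2.68 and 2.41 in WT, 1.91 ± 0.30, beside 2.17 ± 0.30. The groups did not overlap for either gene, and the differences between the backgrounds were -0.23 ± 0.50 and 0.26 ± 0.43, neither called. The other shared rises that the naming rule takes were AT3G12510, AT5G07330, AT1G44414, AT1G32860, AT1G75860, AT5G17350, AT5G24570, AT1G48700, AT5G15640 and AT3G62590, at 1.09 to 1.96 in the brm-1 background and 0.68 to 1.88 in the WT background. The 6 shared falls were AT3G02640, AT1G58602, AT4G14330, AT2G22610, AT2G28620 and AT2G20210, at -0.99 to -0.75 and -1.25 to -0.65. From the 6 arrays of the main comparison alone, none of these 6 falls was called, against 16 of the 27 shared rises. The main call was kept in all 6 fits with 1 array left out for 4 of the falls and 19 of the rises.

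For ABR1, COR47 and KIN1 the WT background gave smaller and uncalled differences. These genes were picked by the size of their rise in the brm-1 background. Smaller values on other arrays can follow from that choice alone. ABR1 had 5.20, 6.26 and 6.04 in hd2c-3 after heat, against 3.82, 4.87 and 4.45 in WT, which do not overlap and differ by 1.45 ± 0.35 (limma adjusted p = 0.0597). COR47 differed by 0.85 ± 0.23 (limma adjusted p = 0.0921) and KIN1 by 0.87 ± 0.23 (limma adjusted p = 0.0838). A missed threshold does not make the effect of hd2c-3 in the WT background different from that in the brm-1 background, and for ABR1, COR47 and KIN1 the tested difference between backgrounds was not called (1.30 ± 0.50, 0.89 ± 0.32 and 0.53 ± 0.32).

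**Figure D5:**
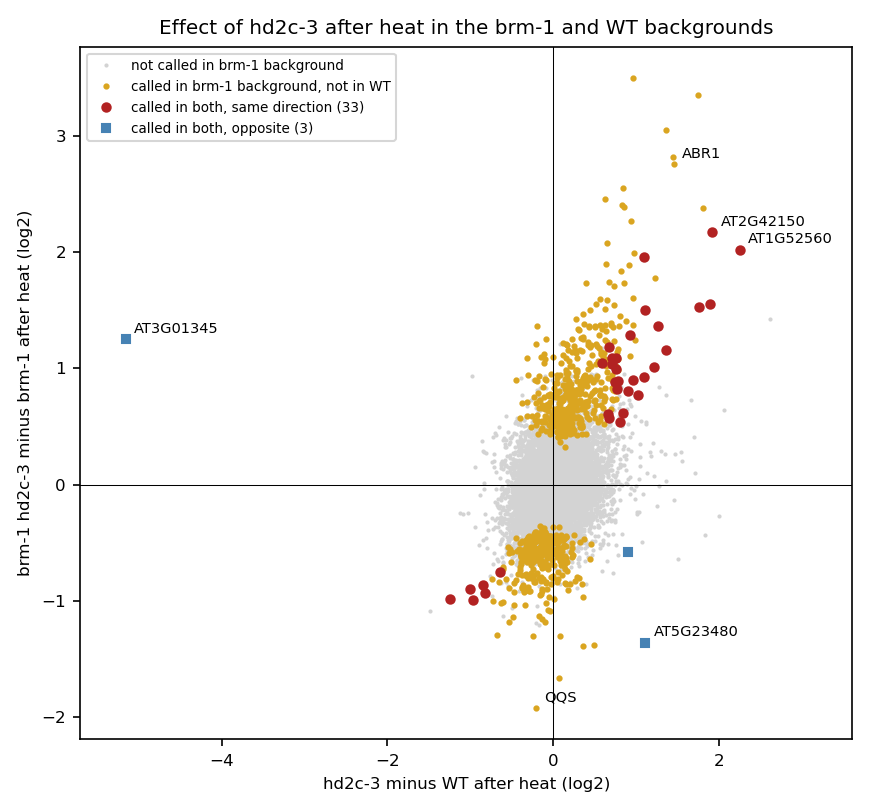
Effect of hd2c-3 after heat in the WT background (x axis, log2) and in the brm-1 background (y axis, log2) for all 16554 genes. Of the called genes, 33 lie in the same direction in both (red circles) and 3 in opposite directions (blue squares), AT3G01345 at -5.16 in the WT background and 1.25 in the brm-1 background.

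The difference of the hd2c-3 effect between the backgrounds was called for 33 genes (0.199%), 14 higher (0.0846%) and 19 lower (0.115%) in the brm-1 background. Of these, 22 were also called in the main comparison. That count is not independent, since the difference contains the arrays of the main comparison. Among symbol genes, the effect was larger in the brm-1 background for GLR3.5 (by 1.23 ± 0.25), UGT87A2 (0.99 ± 0.20) and SAT32 (0.93 ± 0.19). GLR3.5 had 5.67, 5.49 and 5.52 in brm-1 hd2c-3 and 3.96, 4.94 and 4.42 in brm-1, whereas hd2c-3 had 5.41, 4.92 and 5.01 and WT 5.05, 5.34 and 5.29 after heat. Only the brm-1 arrays were all under 5. QQS (-1.71 ± 0.32) and bZIP42 (-1.87 ± 0.38) were lower with hd2c-3 in the brm-1 background and differed little in the WT background (-0.21 and 0.49). For bZIP42 the levels after heat were 2.94, 3.12 and 2.97 in hd2c-3 and 2.50, 2.35 and 2.72 in WT, so that brm-1 was the highest genotype and brm-1 hd2c-3 was close to the other 2. AT3G04010 followed the opposite order, with 5.92, 4.93 and 5.73 in brm-1 hd2c-3 and 3.36, 2.91 and 3.15 in brm-1, beside 6.22, 6.38 and 6.01 in hd2c-3 and 5.29, 5.56 and 5.21 in WT. Any comparison of brm-1 with WT after heat shares the brm-1 arrays with the main comparison, so these levels are given side by side only.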

How the data were processed

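The deposited values, per the file headers a single series table, are log2 intensities, 1 for each probe set and array. RMA and Partek are named per the submitters' processing notes, with no versions, settings or order. Filters and batch handling are not given in the sources used here, and the values give no detection call, so levels near the lower end may be background. Every column was mapped to its sample by title. Probe sets naming several genes (758) or none (20904) were left out, and of several probe sets for a gene the one with the highest mean was kept.

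All 24 arrays entered 1 limma 3.58.1 fit (R 4.3.3) with a mean per group, 16 residual and 6.25 prior degrees of freedom, two-sided tests and Benjamini-Hochberg adjustment over 16554 genes. The script was tested on simulated data. Plots were drawn with matplotlib 3.10.9. The number of arrays, 3 per group, limits the precision.

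The comparison, gene lists and rule for naming genes were chosen with earlier results of these data known. Of 322 listed genes, 83 were measured, meaning that a probe set named that gene alone. The rule took the 15 largest rises and falls among called symbol genes whose groups do not overlap, up to 4 called members of each list, up to 12 genes per direction shared with hd2c-3 minus WT, all measured histone deacetylase genes, and the 5 largest called differences each way. Names come from the platform table and the TAIR10.1 reference gene table, which held 16418 of the genes. No sequences are printed. Alternatives covered scaling, filters, probe set choice, moderation, weights, the arrays fitted, a replicate block and each array left out.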

Additional observations from a re-analysis of the deposited data

Results flagged for a closer look

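The effect of hd2c-3 after heat differed by test between the brm-1 and WT backgrounds for 33 genes. The 5 largest differences downward were AT5G23480 (-2.47), AT5G37670 (-2.26), AT4G23493 (-2.14), bZIP42 (-1.87) and AT5G41761 (-1.75). AT5G23480 had 6.01, 6.77 and 6.33 in brm-1 hd2c-3 and 7.50, 7.92 and 7.75 in brm-1 after heat, while hd2c-3 lay at 5.02 to 5.95 and WT at 4.01 to 5.07. AT5G37670, on the small heat shock protein list, was uncalled in the brm-1 background (-0.44 ± 0.33) and hd2c-3 minus WT was 1.83 after heat. The 5 largest upward were AT3G01345 (6.41), AT3G05500 (1.83), AT1G05340 (1.58), AT5G36920 (1.56) and AT3G04010 (1.54).

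AT3G01345 stands apart from the rest. Its level was 3.32 to 3.73 in hd2c-3 and 8.32 to 8.95 in WT after heat, and 3.08 to 3.24 in hd2c-3 and 9.14 to 9.42 in WT without heat. In brm-1 hd2c-3 after heat it was 4.32 to 5.30 and in brm-1 3.33 to 3.59. All 3 mutant genotypes thus lay far below WT with heat, and hd2c-3 did so without heat too.

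The effect of hd2c-3 in the brm-1 background differed by test between heat and control for 390 genes. The 5 largest upward were AT1G70640 (4.44), AT4G35985 (3.32), AT4G36010 (3.21), AT3G04010 (2.92) and AT4G33930 (2.87). AT1G70640 had 3.99, 3.70 and 3.89 in brm-1 hd2c-3 control and 3.56, 5.23 and 5.62 in brm-1 control, where replicate 1 of brm-1 lay below the other 2 by more than 1. The same array was the lowest of the brm-1 controls for AT4G35985 (3.32, against 5.03 and 4.80) and AT4G36010 (4.70, against 6.37 and 6.27). The 5 largest downward were bZIP42 (-2.36), AT5G23480 (-2.00), AT1G14200 (-1.97), AT3G14200 (-1.91) and AT5G22430 (-1.74). AT5G22430 did not differ by call after heat (-0.03) and was higher in the double mutant in control, by 1.70. AT1G14200 was uncalled after heat (-1.13, limma adjusted p = 0.0682).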

How the results depend on the processing

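The main count of 794 was 693, 846 and 845 under equal medians, cyclic loess and quantile scaling, 898 with a replicate block, 1133 over genes at or above the median level, 1320 over all deposited probe sets, 331 with only the 12 heat arrays, 165 from its own 6 arrays and 372 without both heat arrays numbered 1, the last and the 12-array fit chosen after seeing the data. Leaving out 1 array gave 384 to 1164. The balance of directions also moved. Over genes at or above the median level, 535 were higher and 598 lower, against 460 and 334 in the main fit. Without moderation 426 were higher and 400 lower, and from the 6 arrays alone 134 were higher and 31 lower. The 7 calls in control were 14 over all probe sets, 14 with array weights, 0 without moderation (limma, 945 at an unadjusted p under 0.05) and 1 to 41 without 1 array (41, 2 and 3 without replicates 1, 2 and 3 of brm-1 control, 3 and 1 without replicates 2 and 3 of brm-1 hd2c-3 control). The 99 calls of hd2c-3 against WT were 163 with the level filter, 195 over all probe sets, 151 with an intensity trend, 64 without moderation, 3 from their own arrays, 2 with the 12 heat arrays and 3 to 357 without 1 array. The 33 differences between backgrounds were 68, 54, 57, 13, 3 and 3 under these 6 settings and 6 to 71 without 1 array, where any of the 12 heat arrays except replicate 2 of brm-1 hd2c-3 moved the count by over 1.5 times. For this result its own arrays are the 12 heat arrays, so the last 2 of the 6 settings are the same fit. The 390 differences between heat and control were 587 with the filter, 197 from their own arrays and 168 to 551 without 1 array (168 and 229 without replicates 2 and 3 of brm-1 control, 259 without replicate 1 of brm-1 hd2c-3 control, and 225 and 219 without replicate 3 of brm-1 hd2c-3 and of brm-1 after heat). Under equal medians 3 of 5 control calls were higher, against 3 of 7, and 8 of 35 background differences, against 14 of 33. HDA7, uncalled at 0.24, was -0.0253 without both heat arrays numbered 1, the single reversal among named genes. Of 70 named genes in the main comparison (68 called), 28 lost the call in the 6-array fit, 19 in at least 1 fit without 1 array and 2 under a scaling. The causes were not tested.

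The deviations of equally numbered brm-1 hd2c-3 and brm-1 heat arrays from their group means correlated at 0.409, 0.239 and 0.027. Between unequally numbered arrays the values were -0.34, -0.201, -0.351, 0.226, -0.168 and 0.192. Whether equal numbers mark arrays handled together is not given and was not tested. The replicate block gave 898, 6, 138, 38 and 439 calls in the 5 results, in the order above. The block moved no count by more than 1.5 times.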

Other observations

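Families with at least 10 symbol members held further called genes. Of 16 genes of the PRA1 family, whose proteins act on Rab GTPases in membrane traffic, 3 were higher in brm-1 hd2c-3 than in brm-1 after heat and none was lower: PRA1.B4 (1.09), PRA1.B5 (0.95) and PRA1.B2 (0.51), with a family median of 0.21. Each family count is to be read against the 2.78% of tested genes that rose and the 2.02% that fell. In secretion, SEC1B, which regulates vesicle fusion, was higher by 0.90 ± 0.17, while the exocyst subunit genes SEC5A and SEC5B were both lower by call, at -0.58. Of 12 tetraspanin genes, TET8 was higher at 1.36 and TET10 lower at -0.77. Of 32 serine carboxypeptidase-like genes, scpl31 was higher (0.70) and SCPL27, scpl35 and SCPL34 were lower (-0.50, -0.59 and -0.71). Of 22 genes with a BGLU symbol, beta-glucosidases that do not include PYK10 (-0.92, called lower), BGLU40 was higher (0.58) and BGLU33, BGLU44 and BGLU45 were lower (-0.57, -0.52 and -0.58). These families were picked by symbol after the differences had been seen.

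Some called genes are direct neighbours on the reference gene order, and examples were chosen after their values were seen. Of 40 such pairs, 29 differed in the same direction and the others in opposite directions, among them AT2G38250 and AT2G38255 (0.83 and -1.02). KIN1 and KIN2 (1.41 and 0.57), AT2G32190 and AT2G32200 (1.78 and 2.38), AT3G04000 and AT3G04010 (1.08 and 2.39) and AT5G36920 and AT5G36925 (1.37 and 1.71) were pairs with both genes higher. Whether such pairs are more frequent than among genes at large was not tested. Neighbouring genes that resemble each other can share probe signal, and this was not tested.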
